A study of Mus musculus with 4 samples.

Results

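The regions described here were 455 wide distal stretches of H3K27ac that had a peak in the EGFP- cells of the mouse trunk and in no other cell population of the study. Peaks of the 4 populations were merged where they overlapped, which gave 62558 union regions, and 42651 of these lay outside the windows around protein-coding start sites. The regions were chosen by the peak lists themselves: a trunk EGFP- peak was present, a peak of the other 3 lists was absent, no base lay between 2 kb upstream and 500 bp downstream of a protein-coding start site, and the width was at least 400 bp. A peak in the trunk EGFP- list alone was held by 5554 union regions (8.88%), by 4842 distal regions (11.4%) and by 455 of the 15164 wide distal regions (3.0%). Those counts are fixed by the rule and are a description. The same rule gave 569 regions for limb EGFP- cells alone, 721 for trunk EGFP+ cells alone and 1445 for limb EGFP+ cells alone.

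All 4 samples came from male E14.5 fetuses of the genotype Col2a1-EGFP on the G4 background, made by tetraploid complementation from embryonic stem cells that carry an EGFP sensor cassette at Col2a1, the gene of the main cartilage collagen. EGFP therefore marks cells in which the Col2a1 locus is active, and the groups were limb EGFP+, limb EGFP-, trunk EGFP+ and trunk EGFP- cells sorted from pooled fetuses. Viscera were not part of the trunk sample. The EGFP- fraction is everything the sensor leaves dark, so trunk EGFP- is a mixture of cell types and not 1 lineage. There was 1 library per group, so no value has a replicate error and no comparison between groups was tested. The limb and trunk libraries carry different sequencing lane labels, which leaves tissue and lane confounded (they cannot be told apart). The peak names of the trunk EGFP- library carry a replicate 2 label where its sample label says replicate 1.

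H3K27ac is an acetyl mark on histone H3 that lies on the nucleosomes beside active promoters and active enhancers. Enhancers are DNA stretches that raise the transcription of a gene from a distance, often from an intron or from the sequence between genes, and most are used by few cell types. At this stage the trunk outside cartilage holds body wall and back muscle, spinal cord and ganglia, vessels, blood, skin and connective tissue. Many of these lineages are controlled by basic helix-loop-helix factors, which bind short sites called E-boxes (CANNTG, where N is any base). The kind with GC at its centre, CAGCTG, is bound by the muscle factors MYOD1 and MYOG and by some neural factors of the same family. The kind CATCTG is bound by factors such as the neurogenins, NEUROD1 and TWIST1.

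Sequences of the members that the results turn on are printed from the GRCm39 genome, plus strand, from 100 bp before to 100 bp after the strongest summit, with each CAGCTG in capitals. The first set holds the 5 regions with the highest −log10 p, the value by which the peak caller scored them. Of these windows, 1 of the 5 held a CAGCTG, at Ccnd3.
Ccnd3, chr17:47832962-47833162: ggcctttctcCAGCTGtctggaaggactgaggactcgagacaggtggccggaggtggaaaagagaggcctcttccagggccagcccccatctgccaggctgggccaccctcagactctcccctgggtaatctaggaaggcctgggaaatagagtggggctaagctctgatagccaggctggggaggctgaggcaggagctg
Fhad1, chr4:141691658-141691858: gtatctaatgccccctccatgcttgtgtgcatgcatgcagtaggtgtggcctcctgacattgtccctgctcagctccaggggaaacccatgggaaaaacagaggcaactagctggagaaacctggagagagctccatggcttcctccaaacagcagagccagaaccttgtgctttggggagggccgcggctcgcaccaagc
Map2k6, chr11:110339614-110339814: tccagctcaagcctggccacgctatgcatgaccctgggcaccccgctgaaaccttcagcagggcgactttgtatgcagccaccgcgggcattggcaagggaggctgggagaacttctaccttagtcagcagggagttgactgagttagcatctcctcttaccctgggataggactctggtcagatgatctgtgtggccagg
Mki67, chr7:135649088-135649288: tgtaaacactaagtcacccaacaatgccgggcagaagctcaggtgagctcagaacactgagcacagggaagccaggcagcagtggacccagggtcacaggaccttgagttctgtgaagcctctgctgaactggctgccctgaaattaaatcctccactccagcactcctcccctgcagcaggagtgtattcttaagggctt
Ccdc81, chr7:89557502-89557702: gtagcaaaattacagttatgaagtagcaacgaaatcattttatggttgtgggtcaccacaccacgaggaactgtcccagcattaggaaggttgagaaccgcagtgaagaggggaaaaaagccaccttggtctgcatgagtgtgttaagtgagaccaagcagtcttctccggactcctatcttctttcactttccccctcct

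The second set holds the 4 strongest regions with at least 2 matches to CAGCTG in the printed window, chosen after the values were seen, to show what a region with repeated E-boxes looks like. These 4 windows each held 2 matches. Whether any of these matches lies in an interspersed repeat (a sequence present in many copies across the genome) was not examined.
Phactr2, chr10:13238921-13239121: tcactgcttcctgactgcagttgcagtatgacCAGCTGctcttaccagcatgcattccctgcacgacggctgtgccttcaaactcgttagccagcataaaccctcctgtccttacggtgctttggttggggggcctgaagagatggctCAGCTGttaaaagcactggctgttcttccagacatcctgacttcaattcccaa
Epha10, chr4:124800158-124800358: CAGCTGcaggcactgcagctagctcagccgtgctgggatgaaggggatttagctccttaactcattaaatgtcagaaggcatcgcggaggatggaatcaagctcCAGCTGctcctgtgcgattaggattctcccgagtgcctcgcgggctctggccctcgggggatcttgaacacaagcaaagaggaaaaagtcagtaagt
Gxylt1, chr15:92960806-92961006: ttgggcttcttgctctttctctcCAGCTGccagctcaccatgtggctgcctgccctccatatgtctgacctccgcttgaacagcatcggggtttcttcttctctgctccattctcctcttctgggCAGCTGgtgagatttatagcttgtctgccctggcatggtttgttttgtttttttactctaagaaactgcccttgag
Ankrd46, chr15:36399533-36399733: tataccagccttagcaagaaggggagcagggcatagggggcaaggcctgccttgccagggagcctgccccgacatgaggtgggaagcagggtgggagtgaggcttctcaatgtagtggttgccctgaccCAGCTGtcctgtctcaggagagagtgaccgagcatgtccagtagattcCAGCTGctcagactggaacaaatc

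The third set holds the strongest region near the limb patterning list, near the neural crest list and near the skeletal muscle list, which are described below. None of these 3 windows held the E-box, although the wider window of 200 bp on each side held 2 matches at Tbx3 and 1 at Ednrb.
Tbx3, chr5:119779849-119780049: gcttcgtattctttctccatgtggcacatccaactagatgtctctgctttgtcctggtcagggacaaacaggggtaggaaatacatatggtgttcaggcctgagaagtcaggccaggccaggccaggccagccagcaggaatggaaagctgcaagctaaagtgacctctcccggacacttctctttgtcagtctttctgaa
Ednrb, chr14:104015495-104015695: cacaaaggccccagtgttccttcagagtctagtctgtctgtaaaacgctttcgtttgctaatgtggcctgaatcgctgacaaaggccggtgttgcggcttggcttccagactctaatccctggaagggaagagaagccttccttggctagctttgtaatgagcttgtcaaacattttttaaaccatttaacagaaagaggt
Acsf3, chr8:123520279-123520479: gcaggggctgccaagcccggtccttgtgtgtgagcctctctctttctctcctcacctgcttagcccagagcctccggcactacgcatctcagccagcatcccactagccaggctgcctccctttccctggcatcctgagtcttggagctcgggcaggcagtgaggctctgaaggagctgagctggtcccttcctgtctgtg

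The regions were weak members of their own list. Their median −log10 p was 6.14 (5th to 95th percentile 4.04 to 10.0), against a median of 9.86 over all 30716 trunk EGFP- peak intervals and 9.53 over the 4317 distal intervals of at least 400 bp. Over the 14231 distal trunk EGFP- intervals of any width the median was 6.59, with a median fold of 3.61. Only 27 of the 455 (5.93%) lay above the median of the whole list, and the strongest of them ranked 9478 in it. The median fold over the local background was 3.59, and the fold ran from 2.17 to 7.69. Fold and −log10 p were solved for the reads at each summit, and all 455 summits gave whole reads within 0.001 of the deposited −log10 p. The median summit rested on 15 reads over a background of 3.42 reads, and the range was 8 to 64 reads. Over all summits of the list the median was 28 reads. A −log10 q (p adjusted over the list by the peak caller) of at least 5 was reached by 106 regions, or 23.3% (19.5 to 27.5%, exact 95% interval, which covers counting error only), against 72.8% of all wide distal regions. That last share takes the strongest peak of any list, so the 2 values are not alike. Regions of 1 other population alone stood at 25.7% for trunk EGFP+, 38.5% for limb EGFP- and 54% for limb EGFP+. Because absence from the other lists is part of the rule, a low level is what the rule leaves, and signal below the caller's threshold in the other 3 populations was not analysed here.

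**Figure D1:**
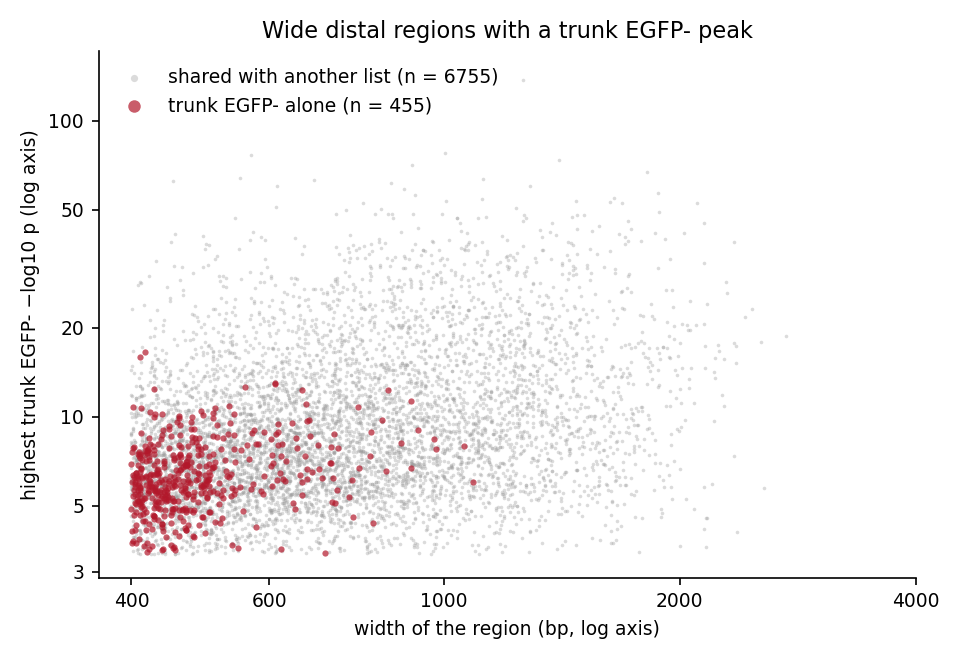
Width of each wide distal region with a trunk EGFP- peak (horizontal log axis, bp) against its highest trunk EGFP- −log10 p (vertical log axis), 1 point per region, for the 455 regions of trunk EGFP- cells alone (red) and the regions shared with another list (grey). The red points lie in the lower left, at a median width of 462 bp and a median −log10 p of 6.14, and none reaches above 16.6.

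Width varied little. The median was 462 bp (25th to 75th percentile 427 to 515 bp) against 602 bp over all wide distal regions, which include regions merged from several lists. It was 472 bp for limb EGFP- alone, 464 bp for trunk EGFP+ alone and 487 bp for limb EGFP+ alone. Of the trunk EGFP- regions, 68 were at least 600 bp wide. A single summit was found in 375 regions (82.4%), 75 had 2 summits, 4 had 3 and 1 had 4. Just inside the 400 bp limit lay a region near Fam3d of 400 bp with a −log10 p of 4.89 and another near Kirrel1 of 400 bp with 6.90. Just outside it lay regions of 399 bp near Rxra, with a −log10 p of 12.1, near Loxl4, with 7.57, and near Eng, with 4.95, so the values on both sides of the limit overlapped.

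The strongest region, chr17:47832894-47833309, lay in an intron of Ccnd3, which encodes the cell cycle regulator cyclin D3, 16.9 kb downstream of the nearest start site. It had a −log10 p of 16.6 and 62 reads, with a fold of 3.43 over a local background of 17.4 reads, and a peak of another list lay 0.250 kb away. The next, chr4:141691506-141691915 in an exon of Fhad1, had the highest fold of all members, 7.69, with 21 reads over 1.86, and the nearest peak of another list was 5.21 kb away. These 2 regions show the 2 ways in which a member reached a high score, many reads on a high background or few reads on a low one. The region chr18:55119811-55120238, in an intron of the zinc finger gene Zfp608, was of the first kind, with 64 reads over 22.7, a fold of 2.74 and another list's peak at 0.299 kb.

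Map2k6, which encodes a kinase of the p38 pathway, had 2 of the 10 strongest regions on either side of its start sites. The intronic region chr11:110339490-110340098 had 28 reads over 4.88 (fold 4.93, −log10 p 13.0), and the upstream region chr11:110270574-110271233 had 19 reads over 2.24 (fold 6.17, −log10 p 12.3). Both stood apart from the other populations, with gaps of 14.3 and 18.7 kb to the nearest peak of another list. The region chr7:89557462-89558020, 4.92 kb upstream of Ccdc81, was as isolated, with 22 reads over 3.04 (fold 5.69) and a gap of 16.3 kb.

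The rest of the 10 strongest lay at Mki67, Tln2, Gsn and Dtx4. The region chr7:135649060-135649669 had Mki67, the proliferation marker gene, as its nearest protein-coding start site only at a distance of 331 kb, and had 34 reads over 7.26 (fold 4.24). The region chr9:67540288-67541136 lay 73.7 kb upstream of Tln2, which encodes the integrin-binding protein talin 2, with 30 reads over 5.98 (fold 4.44). At Gsn, the gene of the actin-severing protein gelsolin, chr2:35149183-35150090 had 3 summits, 30 reads over 6.58 and a fold of 4.09. At Dtx4, a member of the Deltex family of Notch regulators, chr19:12477746-12478412 had 26 reads over 5.12 and a fold of 4.41. The nearest peak of another list lay 0.135 kb from the Mki67 region, 2.39 kb from the Gsn region and 0.609 kb from the Dtx4 region. At the Tln2 region each of the other 3 lists had a peak, at 0.237 to 0.255 kb. Of the 10 strongest, the Mki67 and Tln2 regions and the intronic Map2k6 region touched the promoter window of a lncRNA gene.

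The 5 widest regions did not include any of the 10 strongest. The widest, chr12:8407777-8408865, was 1089 bp wide with 4 summits, lay 40.7 kb downstream of Hs1bp3 and had a −log10 p of 6.02. The region chr17:74571547-74572607 in an intron of Memo1 was 1061 bp wide with 3 summits, a −log10 p of 7.95 and 3 CAGCTG matches. An intronic region of Kalrn, which encodes kalirin, was 929 bp wide (chr16:34261118-34262046), had a −log10 p of 9.04 and also held 3 matches. The other 2 lay 63.4 kb downstream of Efnb1, the ephrin B1 gene, at chrX:98242567-98243543 (977 bp, −log10 p 7.79), and in an intron of the dynamin gene Dnm3 at chr1:162139721-162140693 (973 bp, −log10 p 8.45). Among regions with 3 summits were also chr9:62439043-62439776, in an intron of Coro2b with 3 CAGCTG matches and a −log10 p of 7.85, and chr2:32064713-32065429, in an intron of Prrc2b with a −log10 p of 6.97.

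Many of the regions lay beside peaks of the other populations. Of the 455, 126 (27.7%, 23.6 to 32.1%) had a peak of another list within 1 kb of their edge and 48 (10.5%) within 200 bp, and the smallest gap was 8 bp. Neighbouring peaks came from the limb EGFP- list in the largest number of cases. A limb EGFP- peak lay within 1 kb of 99 regions (21.8%, 18.1 to 25.8%), a limb EGFP+ peak of 53 (11.6%, 8.85 to 15%) and a trunk EGFP+ peak of 41 (9.01%, 6.54 to 12.0%). The median gap to any of the 3 lists was 7.64 kb, and the median gap was 14.7 kb to limb EGFP-, 17.5 kb to limb EGFP+ and 19.2 kb to trunk EGFP+. Another trunk EGFP- interval lay within 1 kb of 82 regions (18%). Gaps were measured for the trunk EGFP- regions alone, so none of these shares has a matching share in other distal regions.

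**Figure D2:**
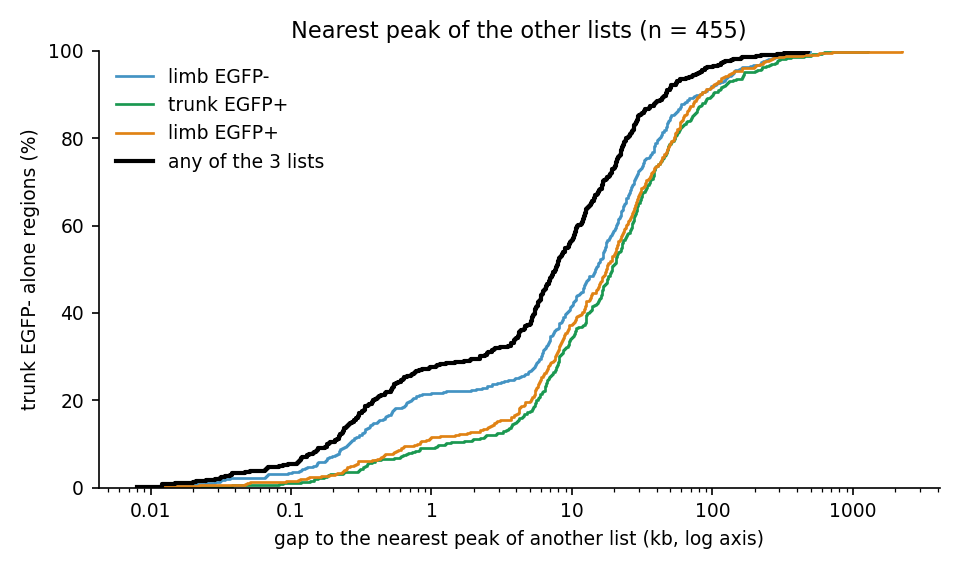
Cumulative share of the 455 regions (vertical axis, %) by the gap to the nearest peak of each other list (horizontal log axis, kb), 1 line per list and a black line for the nearest of the 3. The limb EGFP- line runs above those of the other 2 up to 10 kb, and the black line reaches 27.7% at 1 kb.

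Most of the regions lay outside exons. They lay in introns of protein-coding genes in 202 cases (44.4%, 39.8 to 49.1%), between genes in 213 (46.8%, 42.2 to 51.5%) and across an exon in 40 (8.79%, 6.35 to 11.8%). Over all wide distal regions these shares were 39.9%, 48.2% and 12.0%, of which the exon share lay just above the interval of the trunk EGFP- regions. The median distance to the nearest protein-coding start site was 31.3 kb against 30.02 kb over all wide distal regions, and 98 regions (21.5%) were more than 100 kb away against 19.9%. Limb EGFP- regions alone lay farther out, at a median of 42.4 kb. The promoter window of a lncRNA gene was touched by 84 regions (18.5% against 21.7% over all wide distal regions). Besides those of the strongest regions noted above, these included the regions named here near Hs1bp3, Efnb1, Ednrb, Tbx3, Slc4a1, Lpl, Wt1 and Mnx1. Chromosome 2 held the most members, 45 (9.89% against 7.19% of all wide distal regions), chromosome 13 held 33 (7.25% against 5.48%), X held 4 (0.879% against 1.81%) and Y none.

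The genes next to the regions were mostly marked in every population. For each region the promoter windows of its nearest protein-coding gene were searched for peaks, and 273 (60.0%, 55.3 to 64.5%) had a nearest gene with a promoter peak in all 4 lists, against 62.5% over all wide distal regions. No list had a promoter peak at the nearest gene of 91 regions (20%, against 17.1%). Between 1 and 3 of the other lists, but not trunk EGFP-, marked the nearest promoter of 38 regions (8.35%, 5.98 to 11.3%), against 11.8% over all wide distal regions and 13.8% of the regions of limb EGFP+ cells alone. This share was 8.7% for both trunk populations alone, 9.36% for regions of all 4 lists and 12.1% for trunk EGFP+ alone. For limb EGFP- alone and for both EGFP- populations alone it was 11.2%.

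A promoter marked in trunk EGFP- cells alone was found at the nearest gene of 10 regions (2.2%, 1.06 to 4.00%), against 1.34% over all wide distal regions, 0.832% of the regions of trunk EGFP+ cells alone, 2.23% of those of both EGFP- populations alone and 2.17% of those of both trunk populations alone. These 10 genes were Fhad1, Igf2r, Dmrt2, Adamts15, Mchr1, Wnt7b, Map6, Ednrb, Pgm5 and Lbx1, and they are named because they are few, after their values were seen. Lbx1 encodes a homeodomain factor of migrating limb muscle precursors and of dorsal spinal cord neurons, and its region chr19:45196146-45196553 lay 27.9 kb downstream with 11 reads over 2.34 (fold 3.59). Peaks of trunk EGFP+, limb EGFP+ and limb EGFP- cells lay 0.188, 0.212 and 0.364 kb from that region. Dmrt2 encodes a factor of the somite's muscle-forming compartment, and its region lay 343 kb away at chr19:25992537-25992985 with 17 reads and a fold of 4.57. Ednrb encodes the endothelin receptor of neural crest derived cells, and chr14:104015554-104016181 lay 65.3 kb downstream with 13 reads over 2.66 (fold 3.83). The nearest peak of another list was 58.6 kb from the Ednrb region. Igf2r encodes the receptor that clears IGF2, and its intronic region chr17:12978184-12978715 had 36 reads, a fold of 3.50 and a −log10 p of 10.9. A trunk EGFP+ peak lay 0.118 kb from the Igf2r region. Wnt7b, a secreted Wnt ligand, had chr15:85483618-85484093 at 17.2 kb upstream with 18 reads and a fold of 3.68.

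The regions were scattered over many genes. The 455 regions had 431 different nearest genes, of which 410 had 1 region, 18 had 2 and 3 had 3. The 3 were Mki67, Epb41l4a and Has2. Has2 encodes the main hyaluronan synthase of embryonic mesenchyme, and its 3 regions lay 164 kb upstream and 215 and 360 kb downstream in the sequence around the gene, with −log10 p of 8.45, 6.01 and 6.34. The regions nearest to Mki67 lay 7.09, 146 and 331 kb upstream, with −log10 p of 6.35, 7.63 and 12.9. Among the genes with 2 regions were Lamc1, the laminin gamma 1 gene (−log10 p 9.88 and 6.38), Prkce, which encodes protein kinase C epsilon (8.01 and 4.76), and Tpm1, which encodes the muscle protein tropomyosin 1 (7.95 and 7.35).

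Regions within 50 kb of each other formed 9 clusters with 19 members in all. The cluster with the most members held 3 and was at Epb41l4a on chromosome 18, over 47.2 kb from chr18:34139082 to chr18:34186316, with −log10 p from 4.35 to 10.2. In this span and 50 kb on each side the trunk EGFP- list had 8 intervals and the trunk EGFP+ list 0. The cluster of 2 regions near Cd44, the hyaluronan receptor gene, and Pdhx spanned 40.1 kb on chromosome 2, with 5 trunk EGFP- intervals and 0 of trunk EGFP+. At the other pairs of the 8 clusters that lead by members and strength, trunk EGFP+ cells had peaks too. The pairs at Ccnd3, at Ppif and Zcchc24, at Slc38a6 and at Klf3 had 12, 14, 8 and 8 trunk EGFP- intervals in the same window and 13, 13, 8 and 8 of trunk EGFP+. The pairs at Prkce and Acsf3 had 6 and 4 trunk EGFP- intervals and 2 and 2 of trunk EGFP+.

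The label of the trunk EGFP- library was checked against promoter peaks of marker genes. Over all 21562 protein-coding genes, 52.7% had a promoter peak in trunk EGFP- cells, 52.6% in trunk EGFP+, 51.6% in limb EGFP- and 54.4% in limb EGFP+ cells. Of 22 chondrocyte genes, 6 had a promoter peak in trunk EGFP- cells, against 20 in trunk EGFP+ and 21 in limb EGFP+ cells, and Col2a1 and Acan had none in trunk EGFP-. Of 29 skeletal muscle genes, 10 had one in trunk EGFP- cells, 4 in trunk EGFP+, 7 in limb EGFP- and 5 in limb EGFP+. Those marked in trunk EGFP- cells alone were Neb and Chrna1, which encode the sarcomere protein nebulin and a subunit of the muscle acetylcholine receptor, and Lbx1. The defining muscle factor gene Myod1 had no promoter peak in any of the 4 lists, and Myog had one in limb EGFP+ cells alone. Of 22 neural crest, Schwann cell and ganglion genes, 7 were marked in trunk EGFP- cells, 6 in limb EGFP-, 2 in trunk EGFP+ and 6 in limb EGFP+ cells. The counts of 4 other lists were no higher in trunk EGFP- cells than in the highest of the other populations. Of 20 dermis and connective tissue genes 15 were marked in trunk EGFP- cells and 12 to 15 in the other populations, of 24 blood and immune cell genes 2 against 2 to 3, and of 20 endothelial genes 5 against 5 to 6. Of 37 spinal cord genes 4 were marked in trunk EGFP- cells, 3 in limb EGFP-, 5 in trunk EGFP+ and 7 in limb EGFP+ cells.

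Few of the regions lay near marker genes of any cell type. Within 100 kb of a start site of the 287 genes in 15 lists lay 18 of the 455 regions (3.96%, 2.36 to 6.18%), against 4.35% of all wide distal regions. Skeletal muscle, blood and immune cells, and sclerotome and somite had 3 regions each (0.659%, 0.136 to 1.91%), against 0.369%, 0.462% and 0.0923% of all wide distal regions. Skin epithelium and adipose progenitors and brown fat had 2 each (0.440%) against 0.178% and 0.290%. A single region (0.220%) was found for spinal cord (0.290% of all wide distal regions), neural crest (0.317%), internal organs (0.125%), osteoblasts (0.132%) and limb patterning (0.237%). None was found for chondrocytes (0.831%), endothelium (0.389%), dermis and connective tissue (0.356%), pericytes and smooth muscle (0.191%) and tendon (0.152%), where 0 of 455 allows a share of up to 0.807%. The rule removes each region with a peak in EGFP+ cells, so a low share near chondrocyte genes is not an independent result. It stood at 0.176% in limb EGFP- regions alone, 0 in regions of both trunk populations alone and 0.275% in regions of all 4 lists. In trunk EGFP+ and limb EGFP+ regions alone it was 0.832% and 1.38%. The cause of these differences was not tested. For sclerotome and somite the interval lay above the background share, but on 3 regions. That share was 0.223% with a minimum width of 300 bp and 0 at a −log10 q of at least 5, and among the narrow regions of trunk EGFP- cells alone it was 0.114% against 0.120% of all narrow distal regions. For the other 13 lists the share could not be told from the background at this number of regions.

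**Figure D3:**
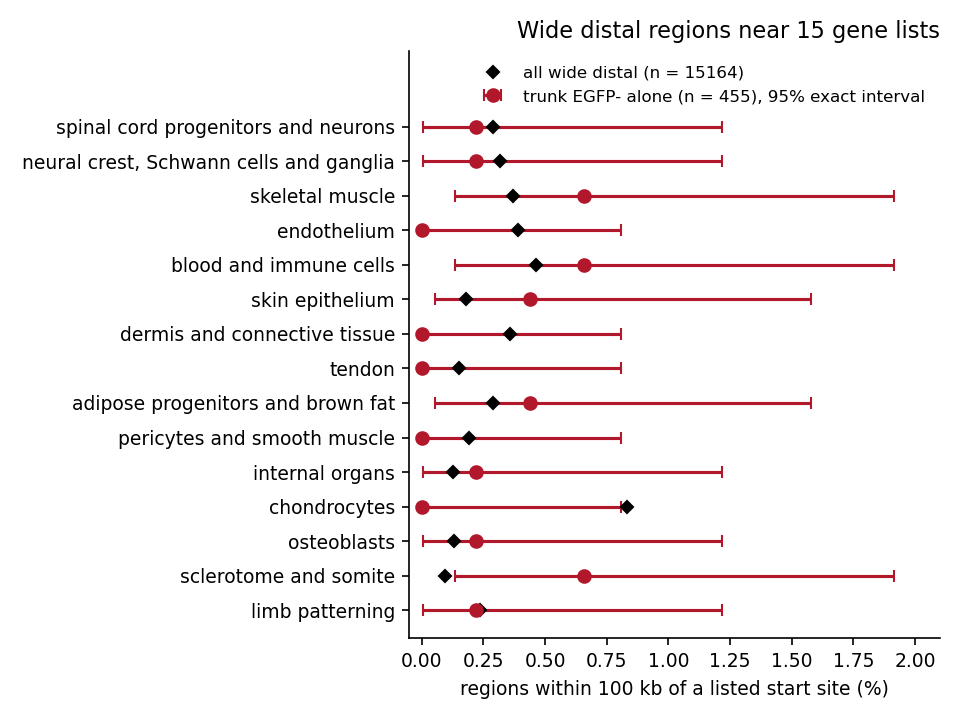
Share of regions within 100 kb of a start site of each of 15 gene lists (horizontal axis, %), for the 455 regions of trunk EGFP- cells alone (red points with exact 95% intervals) and all 15164 wide distal regions (black diamonds). The diamond lies outside the interval for chondrocytes (0.831%) and for sclerotome and somite (0.0923%). The rule removes regions with a peak in EGFP+ cells, so the chondrocyte share is not an independent result.

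Of the regions near the muscle list, that at Lbx1 was described above. The region chr8:123520281-123520684 in an intron of Acsf3 lay 54.2 kb upstream of Cdh15, the M-cadherin gene of muscle precursors, with 15 reads over 3.50 (fold 3.56). Of the regions near the sclerotome and somite list, one lay 48.7 kb from Tbx18 (11 reads over 2.54, fold 3.39) and another 93.5 kb from Uncx (16 reads over 4.20, fold 3.27). Neither gene had a promoter peak in trunk EGFP- cells.

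The blood regions lay near Spi1, the myeloid factor gene, Slc4a1, the red cell anion exchanger gene, and Hba-a1, an alpha globin gene. The region near Spi1, chr2:90892408-90892922, lay 19.9 kb upstream of it across exons of Psmc3 and Slc39a13 (25 reads, fold 3.59), and that near Slc4a1 lay 10.7 kb upstream (15 reads, fold 4.19) with a limb EGFP- peak 0.065 kb away. The region 38.6 kb upstream of Hba-a1, chr11:32194364-32194768 with 17 reads over 4.10, lay across an exon of Nprl3, and its nearest gene was Mpg. Nprl3 is known to hold the alpha globin enhancers, but whether this region is among them was not tested. The 3 blood genes had no promoter peak in any list.

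The single regions near other lists were as low. The fat cell gene Fabp4 had one 5.03 kb upstream (17 reads, fold 4.27) and the lipoprotein lipase gene Lpl one 73.6 kb downstream (15 reads, fold 4.08). In skin, the desmoplakin gene Dsp had an intronic region (20 reads, fold 3.33) and Grhl2 one 73.9 kb upstream (11 reads, fold 2.78). Tbx3, a T-box gene of limb and body wall patterning, had chr5:119779667-119780088 at 26.4 kb upstream with 14 reads over 2.12 (fold 4.81). The motor neuron gene Mnx1 had one at 90.3 kb (18 reads, fold 4.57) whose nearest gene was Lmbr1, the kidney and gonad factor gene Wt1 one at 36.6 kb (16 reads, fold 3.97), and Spp1, the osteopontin gene, one at 13.8 kb (9 reads, fold 3.53).

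Of the motifs searched, the E-box CAGCTG differed most in percentage points between these regions and all wide distal regions, although some rarer motifs differed more as a ratio. It occurred within 200 bp of the strongest summit in 172 of the 455 regions (37.8%, 33.3 to 42.4%), against 4145 of all wide distal regions (27.3%). CAGCTG reads the same on both strands, so each site was counted once. In regions of the other populations alone the share was 26.4% (22.8 to 30.2%) for limb EGFP-, 25.1% (22.0 to 28.4%) for trunk EGFP+ and 21.0% (18.9 to 23.2%) for limb EGFP+. None of these 3 intervals overlapped that of the trunk EGFP- regions. Wide distal regions shared by both EGFP- populations alone, at 34.6% (31.9 to 37.3%), and by both trunk populations alone, at 33.5% (27.4 to 40.0%), came closer, and their intervals overlapped it. The shares are over regions of single libraries, their intervals cover counting error only, and no test between populations was possible. Repeats were not marked in the genome sequence used. The share of regions or of CAGCTG matches in interspersed repeats was therefore not computed, for these regions or for the others.

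Repeated sites were counted in the same windows. At least 2 matches were present in 44 regions (9.67%, 7.11 to 12.8%) against 4.46% of all wide distal regions, 2.99% for limb EGFP- alone, 2.77% for trunk EGFP+ alone and 3.04% for limb EGFP+ alone. Regions shared by both EGFP- populations alone stood at 6.62% (5.28 to 8.17%) and those shared by both trunk populations alone at 5.65% (3.04 to 9.47%), and both intervals overlapped that of the trunk EGFP- regions. At least 3 matches were present in 8 regions (1.76%) against 0.626% of all wide distal regions and 1.74% of the regions of both trunk populations alone. Regions with 3 matches included those at Memo1, Kalrn and Coro2b described above, and chr7:120481794-120482262 near Eef2k.

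The E-box share was also read in regions that the width rule had left out. Of 4387 narrow distal regions (under 400 bp) of trunk EGFP- cells alone, 30.4% (29 to 31.8%) held CAGCTG within 200 bp of the summit. Narrow regions held it in 26.8% (25.7 to 27.9%) for limb EGFP- alone, 24.1% (23.0 to 25.2%) for trunk EGFP+ alone, 22.5% (21.5 to 23.4%) for limb EGFP+ alone and 25.5% (25 to 26%) of all narrow distal regions. The order of the populations was the same as among the wide regions, and the gap was smaller. Among the 455 regions, 40.8% (34.3 to 47.5%) of the 228 with the higher −log10 p and 34.8% (28.6 to 41.4%) of the other 227 held the site, which overlapped.

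**Figure D4:**
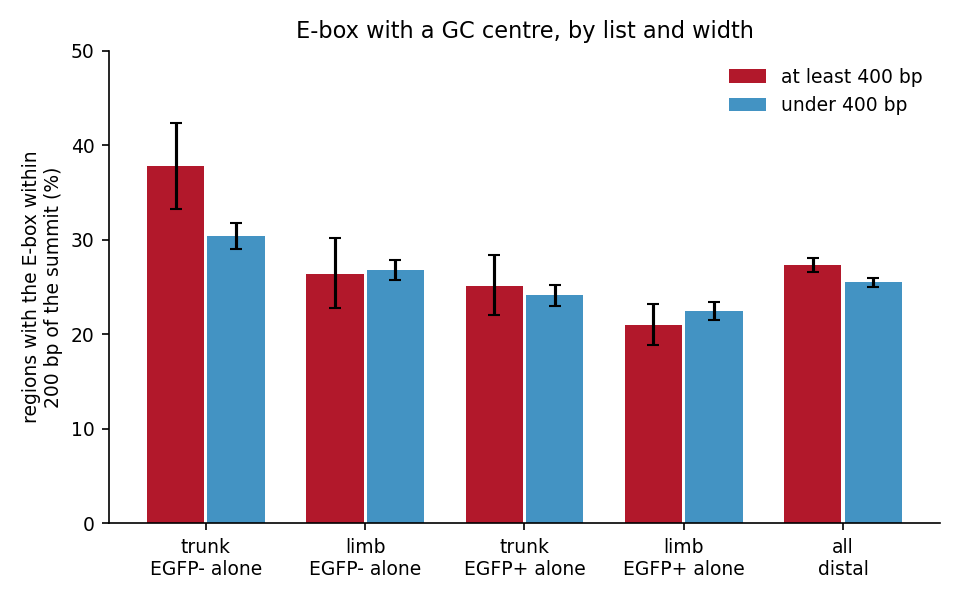
Share of distal regions with CAGCTG, the E-box with a GC centre, within 200 bp of the summit (vertical axis, %), by population and width, with bars for exact 95% intervals. Wide regions (red) of trunk EGFP- cells alone stand highest at 37.8%, and among narrow regions (blue) the same population is highest at 30.4%.

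Base composition differed between regions of single populations, and the E-box share was higher in regions of higher GC content. The median GC content within 200 bp of the summit was 49.9% in the regions and 49.9% over all wide distal regions, but 46.6% for limb EGFP- alone, 48.6% for trunk EGFP+ alone and 46.9% for limb EGFP+ alone. All wide distal regions were therefore divided into 4 classes by GC content, and the E-box share was compared within each. From the lowest class to the highest, 24.5%, 38.8%, 39.3% and 47.9% of the trunk EGFP- regions held CAGCTG, against 18.7%, 25.9%, 30.8% and 33.6% of all wide distal regions. For limb EGFP- alone the shares were 20%, 24.3%, 37.9% and 37.3%, so in the third class the values of both EGFP- populations were close (55 of 140 and 44 of 116 regions). For trunk EGFP+ alone they were 15.3%, 26.0%, 26.6% and 41.0%. Regions of both EGFP- populations alone, at 25.2%, 34.3%, 39% and 42.4%, were close to the trunk EGFP- regions in the first class and the third, and those of both trunk populations alone, at 15.8%, 29.4%, 33.3% and 49.1%, in the highest. The median region held 6 CpG, as did the median wide distal region.

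The sites were not gathered at the summit itself. In bins of 100 bp the trunk EGFP- regions held between 10.5 and 14.51 matches per 100 regions from 500 bp before to 500 bp after the summit, with the most (66 matches) between 400 and 300 bp before it. All wide distal regions held 6.48 to 8.37 per 100 regions over the same stretch. At 900 to 1000 bp the values were 6.59 and 5.39 after the summit and 5.71 and 5.49 before it. With a median width of 462 bp, the stretch of higher density reached beyond the edges of most of the regions, and the values came close to the general level only in the outer bins.

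**Figure D5:**
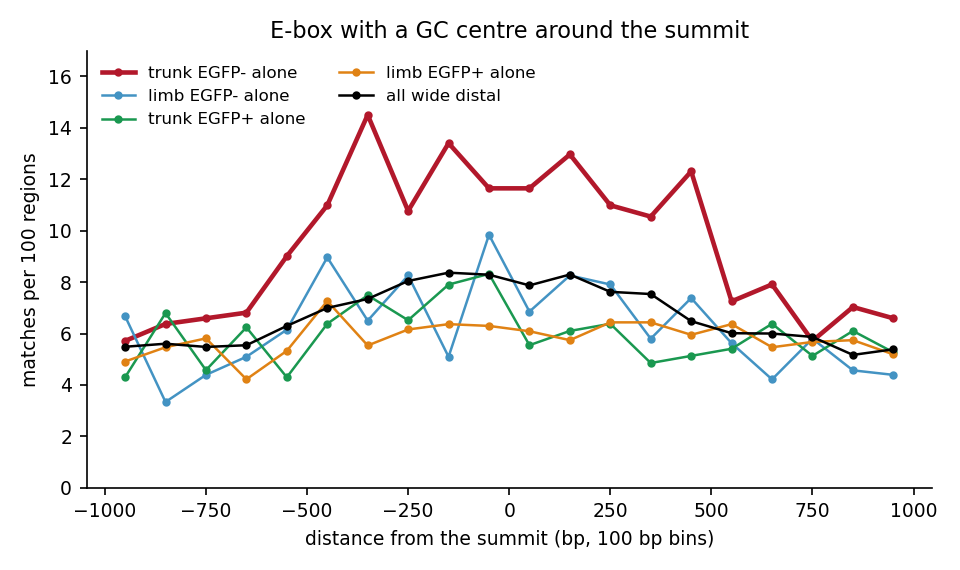
Matches to CAGCTG, the E-box with a GC centre, per 100 regions (vertical axis) in 100 bp bins by distance from the summit (horizontal axis, bp), 1 line per population of wide distal regions. The trunk EGFP- line (red) runs between 10.5 and 14.51 within 500 bp of the summit and the line of all wide distal regions (black) between 6.48 and 8.37.

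The other kinds of E-box lay nearer to the general share. Of the 10 kinds of E-box, CAGCTG differed most from all wide distal regions, by 10.5 percentage points, and CATCTG came next with 34.3% (29.9 to 38.8%) against 30.2%, or 4.10 points. The other 8 kinds lay between 1.19 points below and 1.5 points above the general share. In limb EGFP- regions alone CATCTG stood at 40.8%, and CATATG, a kind bound by TWIST1, at 12.8% against 6.59% in the trunk EGFP- regions. In the trunk EGFP- regions the intervals of CAGCTG and CATCTG overlapped, and among the narrow regions of trunk EGFP- cells alone CATCTG, at 35.5% (34.1 to 37%), stood above CAGCTG. The same DNA letters are bound by many factors, and a match is a description of the sequence and not of binding.

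Of the other motifs searched, 22 in all when 3 of these E-boxes are counted, those of the families below are given beside their share in all wide distal regions. Both strands were searched in every case. A SOX site (ACAATGG) was found in 7.03% (4.86 to 9.78%) of the regions against 4.75% of all wide distal regions, and in 7.21% of limb EGFP- regions, 4.50% of limb EGFP+ regions and 3.05% of trunk EGFP+ regions alone. A site of HOX and PBX factors (TGATTNAT) was found in 6.37% (4.31 to 9.03%) against 4.29%. It stood at 6.96% in regions of both trunk populations alone and at 5.74% in limb EGFP+ regions alone. For both EGFP- populations, limb EGFP- and trunk EGFP+ alone it was 4.71%, 4.57% and 3.74%. The POU octamer (ATGCAAAT) was found in 2.86% (1.53 to 4.84%) against 1.61%. GATA sites (AGATAAG), bound by blood and endothelial factors, occurred in 4.4% against 3.63%, and TEAD sites (GGAATGT) in 7.91% against 7.60%. AP-1 sites (TGANTCA) were at 12.1% against 11.0%, RUNX sites (TGTGGTT) at 9.01% against 8.57% and homeodomain sites (TAATTA) at 6.59% against 6.67%. TFAP2 sites (GCCNNNGGC) were at 12.5% against 15%, and ETS sites (CCGGAAG) at 2.86% against 3.72%.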

How the data were processed

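H3K27ac ChIP-seq of 4 sorted populations was deposited as 1 peak list per sample. Per the methods, the authors sampled a similar number of reads per library, trimmed them with cutadapt 1.18, mapped them to GRCm39/mm39 with Bowtie2 2.3.5.1, kept mapping qualities of at least 30 with SAMtools, and called peaks with MACS2 2.2.7.1 after extending reads by 200 bp, with no input control named in the sources used here. Each deposited row holds a score, a fold (ratio of reads over the local background at the summit), a −log10 p-value, a −log10 q-value and a summit position. Read lengths of 50 or 100 bases and more than 1 sonicator are given without saying which library had which.

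Rows with one start and end were joined on chromosomes 1 to 19, X and Y, and the summit with the highest −log10 p gave the values. The lists held 40899 (limb EGFP+), 34360 (limb EGFP-), 36231 (trunk EGFP+) and 30716 (trunk EGFP-) intervals, with a median of 29, 26, 28 and 28 reads per summit. Start sites were the 67388 starts of protein-coding transcripts in GENCODE vM39 on GRCm39. Reads were recovered by solving fold and −log10 p for a whole number of reads n and a background b, with fold = (n + 1)/(b + 1) and p the Poisson probability of more than n. With 1 library per group there was no test between groups, and shares carry exact (Clopper-Pearson) 95% intervals for counting error only. Reads without molecular identifiers are not independent molecules. Overlap, gap, motif and read recovery code was tested on simulated data. Python 3.11.15, pandas 2.3.3, scipy 1.17.1, pysam 0.24.0 and samtools 1.23.1 were used.

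The members and the gene lists and motifs were chosen with earlier results of these data known. Named were the 10 strongest, 5 widest and 5 most summit-rich regions, the 2 strongest near each gene list, the clusters within 50 kb and the 10 genes with the most regions, plus those said to be named after their values were seen. The E-box kinds, copies, GC classes, narrow regions, strength groups and position bins were added after seeing the data. Windows that touch an annotated UTR or lie on chromosome 18 were not printed. Some regions that this rule names are not reported here.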

Additional observations from a re-analysis of the deposited data

How the results depend on the processing

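The number of regions, 455, rests on the width limit and on peak strength. It was 1343 with a minimum of 300 bp, 68 with 600 bp and 106 with a −log10 q of at least 5 for the trunk EGFP- peak, since each of these settings admits or drops regions by its own construction. Under the other 8 settings it lay between 329 (no peak of another list within 1 kb) and 548 (overlap counted from 50% of the shorter interval). The share with CAGCTG was 19.8% within 100 bp of the summit, against 14.4% of all wide distal regions, and 45.3% over the whole region, against 40.5%, where all wide distal regions are also wider. At a −log10 q of at least 5 it was 42.5%, on 45 of 106 regions, against 27.1%. In settings added after seeing the data it was 35.8% without regions at lncRNA start sites and 37.9% in regions with 1 summit. All wide distal regions stood at 27.3% in both of these settings. Without regions within 1 kb of another list the share with CAGCTG was 38%, and no share over all wide distal regions was computed there. At a minimum of 600 bp, introns held 50.0%, intergenic sequence 39.7%, and the nearest promoter was marked in other lists without trunk EGFP- for 5.88%. At a −log10 q of at least 5 the nearest promoter was marked in all 4 lists for 54.7% and in trunk EGFP- alone for 4.72%. With a window of 500 kb 13.8% of the regions lay near a listed gene. No share over all wide distal regions was computed for these location, promoter and gene list settings. Their values therefore describe the regions alone and cannot be set against a background. The causes of these shifts in location and promoter state were not tested. Single gene lists and motifs moved outside the interval of the main value in 51 of 168 recomputed values, most of them counts of 0 to 3 regions or the narrower motif window. No paired analysis was possible because each group had 1 library. At a median of 15 reads per summit, a region missing from another list cannot be told from one with signal just under the caller's threshold.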
